A study of Mus musculus with 7 samples.

Results

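The RNAs described here are those with the highest array signal in sperm of nonTG3 mice. Each of the 23493 probe sets that the platform annotation pairs with exactly 1 gene symbol was ranked by its mean log2 intensity on the 3 nonTG3 arrays, and the 300 highest were kept. They carry 283 of the 22154 symbols ranked. The background share is therefore 1.28% of probe sets and 1.28% of symbols. The values that made the ranking are given as a description, with no test, and no other group enters.

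The series measured sperm RNA on 7 expression arrays, of which 3 held nonTG3, 3 held TG3 and 1 held C57BL/6 sperm. Each nonTG3 array held RNA pooled from 4 males, and these 3 pools are called replicates 1, 2 and 3 after their labels. The nonTG3 males were wild-type littermates of TG3 males, which carry a transgene for the histone demethylase KDM1A, in a C57BL/6 line kept for 3 generations through heterozygous males mated to C57BL/6 females. Heterozygous transgenic males of that line are thus ancestors of the nonTG3 mice as well. The labels name neither the promoter of the transgene nor the age of the males, and do not say whether a male gave RNA to more than 1 pool.

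Mature sperm carry little RNA, and their nucleus, packed with protamines, is regarded as transcriptionally silent. Much of the messenger RNA found in them was made earlier, in round and elongating spermatids, where transcripts for the tail, the sheath of mitochondria and the condensing nucleus are stored before translation. Sperm also pass through the epididymis, whose epithelium secretes defensins, protease inhibitors and lipid carriers that coat them. The intensity of a probe set depends on its own probes as well as on its RNA, so the order is one of array signal and not of calibrated molecule numbers. In pooled sperm, fewer cells of a type and less RNA per cell cannot be told apart.

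The 3 arrays had medians of 3.55, 3.58 and 3.54 over all probe sets and correlated at r = 0.961 to 0.974 over the ranked ones. Means of the 300 ran from 12.59 down to 8.43, with a median of 9.19, against a median of 3.76 over all ranked probe sets. A mean of 10 or more was reached by 66 members and a mean of 11 or more by 18. Summed on the linear scale, the 300 held 30.5%, 29.1% and 30.5% of the signal of all ranked probe sets on replicates 1, 2 and 3. The top 10 held 3.72% to 3.89% of it and the top 1000 held at most 47.8%.

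**Figure D1:**
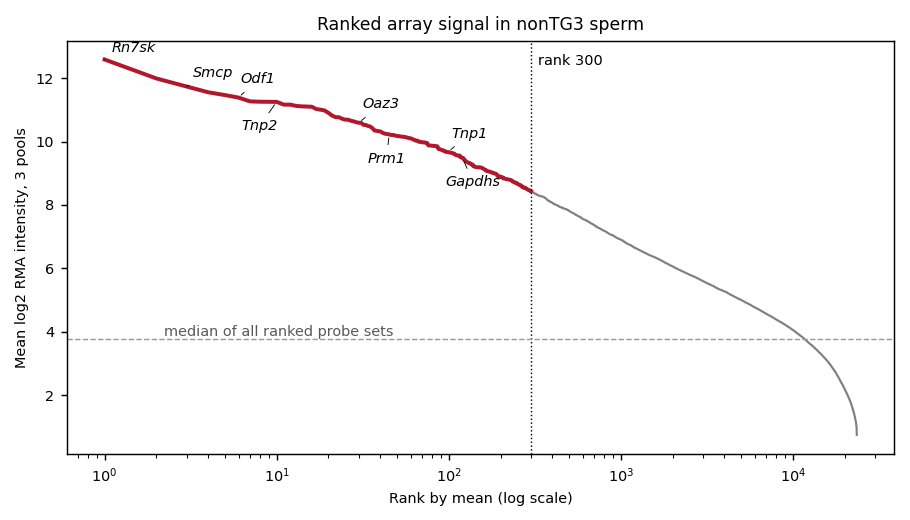
Mean log2 intensity (y axis) of the ranked probe sets against their rank (x axis, log scale) in nonTG3 sperm, mean of 3 pools. The curve falls from 12.59 at the first rank to 8.43 at the last of the 300, and the median of all ranked probe sets is 3.76.

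The label of the sample was checked against defining markers of sperm and of the cells that could accompany them. Of 9 spermatid markers measured, 7 were in the 300 and the other two, Tssk6 and Akap4, had means of 8.27 and 7.02. No member came from the marker lists of meiotic cells, spermatogonia, Sertoli cells, Leydig cells, epididymal epithelium, leukocytes, fibroblasts and muscle, or red cells. Only 1 red cell marker was measured. Each of these lists had at most 10 measured genes, so having no member is near the 1.28% share of all symbols. Outside those lists, 11 members code for secreted or surface proteins of the epididymis and other epithelia. The highest of these, Wfdc10, had a mean of 10.42. Adam7 of the epididymal list ranked 325, just below the limit. All 8 Leydig markers measured had means below the lowest array median. So did 5 of 8 epididymal, 5 of 10 Sertoli, 4 of 10 spermatogonial, 3 of 9 meiotic and 2 of 9 leukocyte markers. Of all 23493 ranked probe sets, 13098 had means at or above that median, so a mean below it was common. Markers of fibroblasts, muscle and vessels were higher as a list: 1 of 10 lay below that median, and their median was 5.53. Dcn, a matrix proteoglycan, and Acta2, smooth muscle actin, had means of 6.97 and 6.84. Single germ cell markers were high as well: Stag3 of the meiotic list had a mean of 7.29 and Uchl1 of the spermatogonial list 6.36. The summed linear intensity of the 9 spermatid markers was 13871, 11844 and 14223 on replicates 1, 2 and 3.

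The first 30 ranks combine structural RNAs, spermatid messages, mitochondrial transcripts and regulatory genes. Rn7sk, the 7SK RNA that holds the transcription elongation factor P-TEFb inactive, took the first rank at 12.55, 12.61 and 12.61 on replicates 1, 2 and 3. The other Rn7sk probe set was next, at 12.02, 11.79 and 12.16. Both are higher than every other ranked probe set on average, and their pools lay within 0.4 of each other. Smcp, a cysteine-rich protein of the sperm mitochondrial capsule, followed at 11.87, 11.56 and 11.77.

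**Figure D2:**
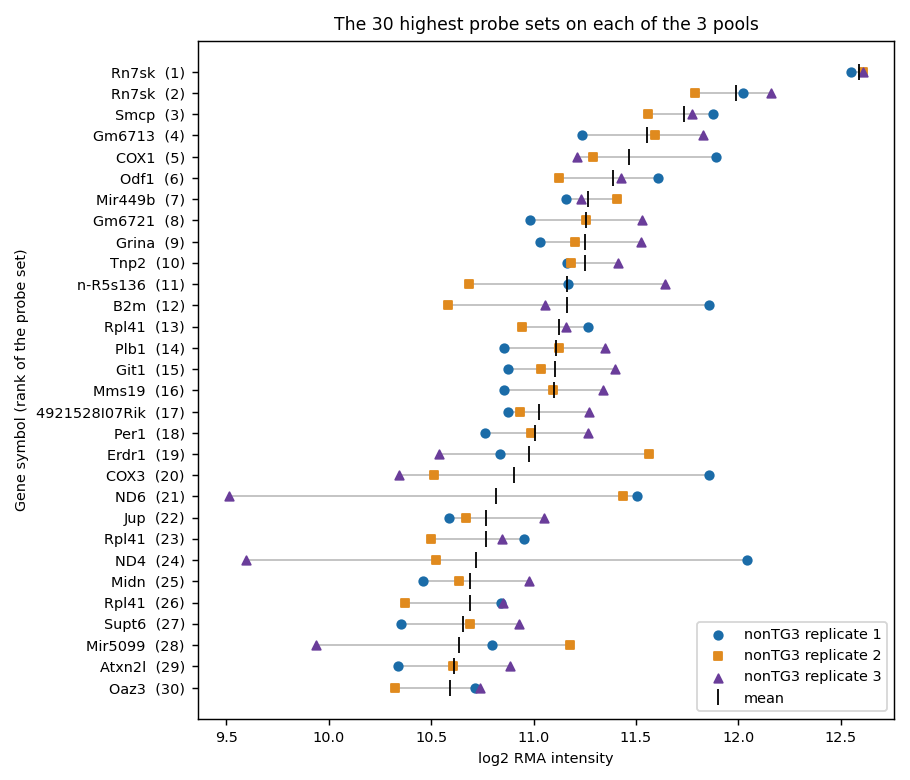
Log2 intensity (x axis) of the 30 probe sets of highest mean (y axis, in rank order), 1 point per pool for replicates 1, 2 and 3. Most rows have the 3 pools close together, while ND4 spans 9.60 to 12.04 and ND6 spans 9.51 to 11.50.

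The 26 members placed by hand in the sperm structure set included several of the highest signals. They comprise 14 genes in the role of tail and midpiece, 8 in that of head and nuclear shaping and 4 in spermatid chromatin. Not all of them code for structural proteins, since Kcnu1 is a channel and Hk1 an enzyme. Their means ran from 11.74 to 8.54, with a median SD between pools of 0.16. As deposited, 19 of the 26 were highest on replicate 3, but after cyclic loess, which evens out array differences along the intensity scale, 17 were highest on replicate 1. Odf1, a main protein of the outer dense fibres that stiffen the tail, gave 11.61, 11.12 and 11.43. Oaz3, the antizyme of haploid germ cells that limits polyamine synthesis, gave 10.71, 10.32 and 10.74. Both were lowest on replicate 2, by less than 0.5.

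Genes for chromatin proteins of the condensing nucleus differed by less than 0.3 between pools, Chd5 excepted. Tnp2, a transition protein that takes the place of histones before protamines do, was at 11.16, 11.18 and 11.41. Prm1, protamine 1, was at 10.15, 10.19 and 10.35, and Tnp1, the other transition protein, at 9.58, 9.58 and 9.85. As deposited, replicate 3 was highest for each of these genes, with an SD of 0.16 or less; after cyclic loess the mean of the role turned to 0.10 on replicate 1 and -0.10 on replicate 3. Chd5, a chromatin remodeller needed for histone removal in spermatids, was at 10.03, 10.27 and 10.66. These were the 4 members among 19 measured genes of the sperm chromatin list; protamine 2 has no probe set with a single symbol and was not ranked.

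Among tail and midpiece genes, Gapdhs, the sperm form of glyceraldehyde-3-phosphate dehydrogenase bound to the fibrous sheath, gave 9.53, 9.34 and 9.60. Spata18, a gene of the outer dense fibre and sheath list, had the smallest SD of the 300, with 9.38, 9.42 and 9.44. Tppp2, a tubulin-binding protein of the tail, varied more, at 9.99, 9.23 and 9.62. Hydin, a protein of the axoneme's central pair, gave 8.72, 9.0 and 9.23, and Kcnu1, the sperm potassium channel, 8.23, 8.57 and 8.81. As deposited, the last pair was lowest on replicate 1, whereas Tppp2 was highest there. Spem1 and Spem2, which lie next to each other in the genome and of which Spem1 is needed for removal of spermatid cytoplasm, gave 10.31, 10.55 and 10.61 and 10.15, 10.40 and 10.43. Their pools fell in the same order, and the highest exceeded the lowest by less than 0.3.

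The glycolysis list placed 3 of 22 genes in the 300: Gapdhs, Hk1 and Pkm. Hk1, hexokinase, gave 9.16, 9.36 and 9.48, and Pkm, pyruvate kinase, gave 8.96, 8.94 and 9.11. The outer dense fibre and fibrous sheath list had 6 of 24, the perinuclear theca list 2 of 25, the axoneme and cilia list 2 of 36 and the list of sperm ion channels 1 of 24. None of 45 acrosome and egg-binding genes was a member, and the highest of them, Pcsk4, a convertase of the acrosome, had a mean of 7.78. Translation control had 4 of 42 (Tpt1, Ddx5, Eef1a1 and Eif4a1), polyamine and metal binding 2 of 14 (Oaz3 and Fth1), and ubiquitin and protein turnover 2 of 33 (Rnf138 and Usp2), with 1 of these left whichever replicate was omitted. Heat shock proteins had 1 of 31 (Hspb9), or 2 without replicate 3, and none of 38 proteasome and 22 redox genes was a member. The list of testis kinases and phosphatases had 1 of 31 (Sik1). Tssk6 and Tssk3 of that list lay outside the 300, with means of 8.27 and 7.42. The share over all symbols is 1.28%.

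**Figure D3:**
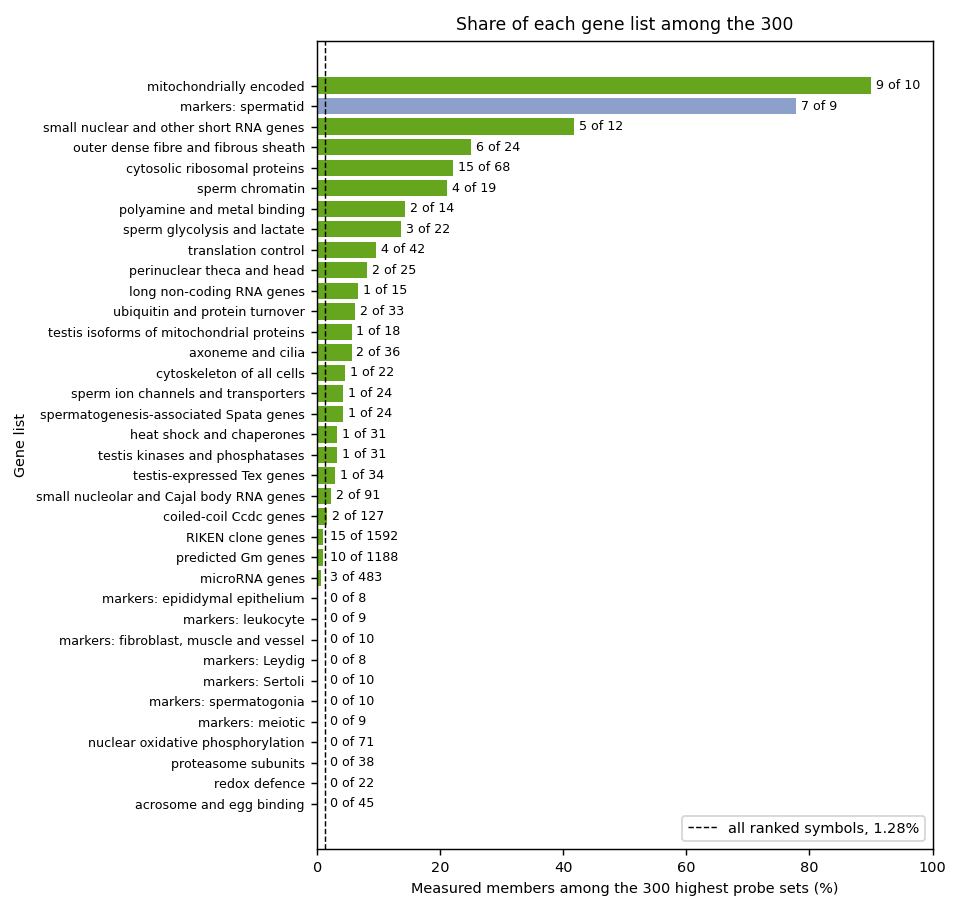
Percent of the measured genes of each list (y axis) whose highest probe set was in the 300 (x axis), with the number of members and of genes measured beside each bar; the dashed line marks the 1.28% of all symbols. The mitochondrially encoded list stands at 90.0% and the acrosome list at 0.

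Transcripts of the mitochondrial genome were the most variable role. Of the 10 protein genes of that genome with a probe set of 1 symbol, 9 were members, all subunits of the respiratory chain, and ND2 lay outside with a mean of 8.18. COX1, a core subunit of cytochrome c oxidase, gave 11.89, 11.29 and 11.21. ND3, a subunit of complex I, gave 12.12, 9.32 and 8.12, an SD of 2.05 that is the largest of the 300. CYTB, cytochrome b of complex III, gave 11.94, 9.99 and 8.58. All 9 members were highest on replicate 1 and lowest on replicate 3.

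The role means were 11.69, 10.21 and 9.19 on replicates 1, 2 and 3, so replicate 1 exceeded replicate 3 by over 2 log2 units. ND4 and ND5 gave 12.04, 10.52 and 9.60, and 11.49, 10.50 and 9.04. ND6, encoded on the other strand, was near level on replicates 1 and 2, at 11.50 and 11.44, and at 9.51 on replicate 3. COX3, ND1 and ND4L gave 11.86, 10.51 and 10.34; 11.37, 9.43 and 8.82; and 10.98, 8.85 and 7.51. Replicate 3 was lowest in all 9 members also when quantile normalization was repeated, when arrays were set to the same median of the 300 and under cyclic loess; replicate 1 was highest in 8 or 9 of them.

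Out of 71 nuclear genes of oxidative phosphorylation measured none was a member, which is near the 1.28% share of all symbols. Cox6a1, a small subunit of cytochrome c oxidase, was highest of them with a mean of 8.03 and gave 8.51, 7.62 and 7.97. The testis-isoform list of mitochondrial proteins had 1 member of 18, Smcp.

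**Figure D4:**
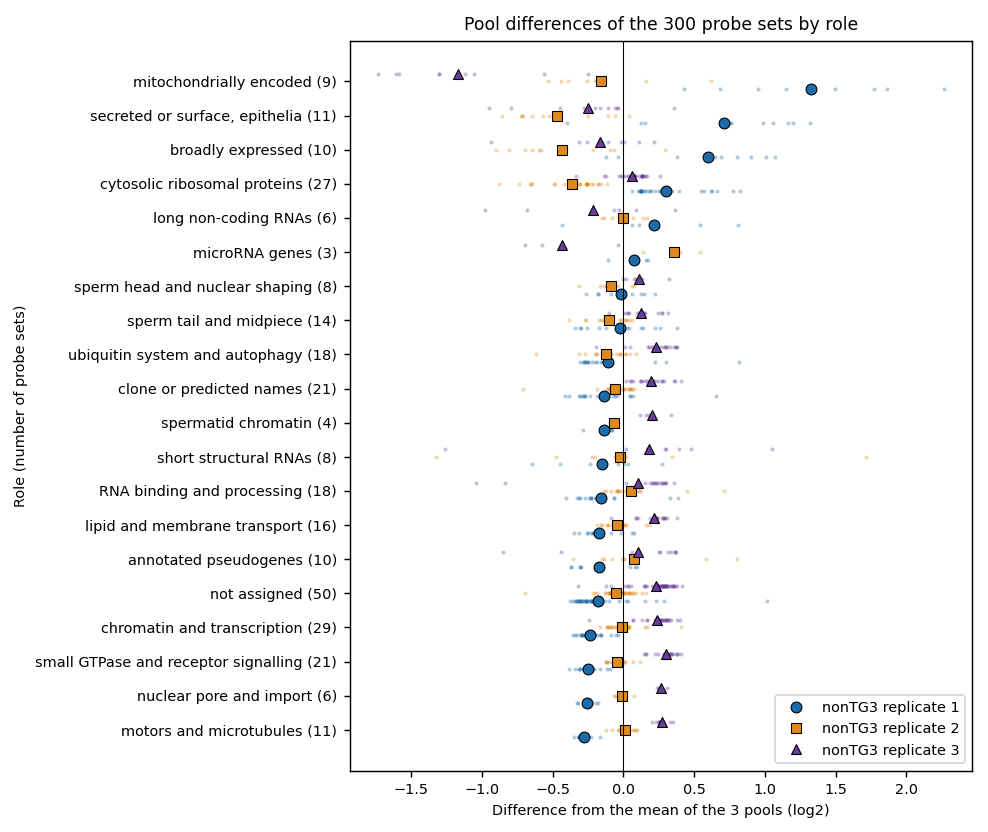
Deviation of each replicate from the mean of the 3 pools (x axis, log2), averaged over the members of each role (y axis); large points are the role means on replicates 1, 2 and 3 and small points are members. Mitochondrial transcripts spread from 1.33 on replicate 1 to -1.17 on replicate 3, and sperm tail genes from -0.10 to 0.13.

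Cytosolic ribosomal proteins gave 27 probe sets of 15 symbols, out of 68 genes measured, and as deposited all 27 were lowest on replicate 2. Rpl41, had 4 probe sets in the 300, the highest at 11.27, 10.95 and 11.16. Rpl21 gave 10.33, 10.05 and 10.24. Rps12 had 8 probe sets, of which 6 carried identical values on every array and so count as 1 measurement. Rps26 gave 9.43, 7.93 and 9.07, and Rpl4 gave 9.90, 8.58 and 8.73. The mean deviation of the role was 0.30, -0.36 and 0.06; it was highest on replicate 1 and lowest on replicate 2 under every normalization tried.

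Genes of broad expression varied too. B2m, the light chain of class I histocompatibility molecules, gave 11.86, 10.58 and 11.05. Tpt1, a translationally controlled protein, gave 11.13, 9.24 and 9.80, and Itm2b, a membrane protein, 11.10, 9.39 and 9.78. Eef1a1, an elongation factor, gave 9.99, 8.54 and 9.03, and Fth1, ferritin heavy chain, 9.92, 8.12 and 9.02. These 5 genes were highest on replicate 1 and lowest on replicate 2. Of the 10 members in this role, 8 were highest on replicate 1. Eif4a1, the helicase of translation initiation, differed, at 9.47, 9.12 and 7.89.

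The 11 members that code for secreted or surface proteins of the epididymis and other epithelia also varied, with a median SD of 0.75. Wfdc10 gave 11.16, 9.85 and 10.26 and Wfdc15b gave 10.49, 8.61 and 8.87; both belong to a family of small secreted proteins with a whey acidic protein core. Spink8, a Kazal-type protease inhibitor, gave 10.92, 9.01 and 9.66. Defb28 and Defb2, beta-defensins, gave 10.61, 9.12 and 9.82, and 10.38, 8.68 and 9.11. Replicate 1 was highest in each of these 5. Ptgds, a lipocalin that makes prostaglandin D, gave 10.17, 8.33 and 8.07, and Serpina1f, a serpin, gave 10.12, 8.67 and 7.97. Prom1 and Aqp11 varied least in this role, with SDs of 0.11 and 0.14. They gave 8.78, 8.60 and 8.60, and 8.78, 8.51 and 8.58.

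Cd52, a short surface peptide that sperm take up in the epididymis, gave 9.64, 8.24 and 8.78. Replicate 1 was highest in 10 of the 11, under every normalization tried, whereas the order of replicates 2 and 3 changed between normalizations. Muc6, a gel-forming mucin, was the exception, at 8.44, 8.88 and 9.20. The epididymal marker list was likewise highest on replicate 1, as were the mitochondrial, ribosomal and broadly expressed members. Its summed linear intensity over 8 genes was 1061, 404 and 238, and most of that was Adam7, a surface protein of sperm and epididymis, at 9.80, 8.03 and 7.14. Lcn5, an epididymal retinoid carrier, had a mean of 3.25. Without replicate 3, Adam7 would enter the 300. Leukocyte markers summed to 162, 139 and 161, and those of fibroblasts, muscle and vessels to 497, 443 and 755. The part of these cells in the results was not tested.

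Short structural RNAs filled 8 probe sets. n-R5s136, a 5S ribosomal RNA gene, gave 11.17, 10.68 and 11.64. Rny3, a Y RNA that binds the Ro protein, gave 10.49, 8.88 and 11.26, and Rpph1, the RNA of ribonuclease P, gave 9.30, 10.30 and 10.26. The lowest pool differed between them: replicate 2 for the first pair and replicate 1 for Rpph1. Rnu12, a small nuclear RNA of the minor spliceosome, gave 9.59, 9.54 and 10.15. Snord66 and Snord17, both guide RNAs for ribosomal RNA modification, gave 9.79, 9.97 and 10.32, and 8.15, 10.31 and 7.33. Snord17 was high on replicate 2 only, would leave the 300 without that replicate, and had the lowest rank of any member on 1 array, 823 on replicate 3. Snord17 lies within Snx5, whose own mean was 4.65.

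Of 483 microRNA genes, 3 were members, or 0.621%, against 1.28% of all symbols. A whole-transcript array measures the region of the gene and does not separate the hairpin precursor from the mature product. Mir449b gave 11.16, 11.41 and 11.23, Mir5099 gave 10.80, 11.18 and 9.94, and Mir761 gave 10.04, 10.26 and 9.29. All were highest on replicate 2, under every normalization tried, and the last pair was lowest on replicate 3. Mir449b lies within Cdc20b, which had a mean of 3.84, and Mir761 within Nrd1, a peptidase gene that was itself a member with a mean of 9.08.

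For these genes the RefSeq sequences (GRCm38.p6) show what could be matched by name. The mature miR-761 at chr4:109017669-109017690, plus strand, is printed with its seed, bases 2 to 8, in capitals, and the hairpin of Mir5099 at chr12:36816205-36816278, plus strand, has no base marked.
miR-761: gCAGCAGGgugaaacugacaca
Mir5099 hairpin: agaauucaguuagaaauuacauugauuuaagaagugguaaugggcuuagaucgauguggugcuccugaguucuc

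Long non-coding RNAs gave 6 probe sets of 5 symbols. Malat1, a nuclear RNA of speckles, was highest at 11.06, 10.66 and 9.84, and its other probe set gave 11.02, 10.38 and 9.23. Both were highest on replicate 1 and lowest on replicate 3, as the mitochondrial transcripts were. Wbscr25 gave 9.79, 9.45 and 9.52, 1700020G17Rik gave 8.61, 9.12 and 9.42, Lncpint gave 8.90, 8.71 and 8.76, and 1700009J07Rik gave 8.69, 8.47 and 8.72. Long non-coding RNAs made up 2.0% of the 300 against 8.29% of all ranked probe sets, and protein-coding genes 90.7% against 85.8%.

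The set called regulatory and signalling here, the largest because several roles were joined, held 119 probe sets of 118 symbols. It joins chromatin and transcription (29 probe sets), small GTPase and receptor signalling (21), RNA binding and processing (18) and ubiquitin and autophagy (18). Also in it are roles that its name does not cover: lipid and membrane transport (16), motors and microtubules (11) and nuclear pore and import (6). The share of these roles over all ranked probe sets was not counted, so an excess was not tested. The median SD of the set was 0.27. As deposited, 106 were highest on replicate 3 and 99 were also lowest on replicate 1; after cyclic loess 21 had that order and the mean deviations lay within 0.04 of 0.

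Plb1, a phospholipase B of the lipid and membrane transport role, was highest of the set at 10.86, 11.12 and 11.35. Git1, a GTPase-activating protein for Arf, gave 10.88, 11.03 and 11.40. Mms19, which delivers iron-sulphur clusters to DNA repair enzymes, gave 10.86, 11.10 and 11.34. All have the same order of pools. Per1, a repressor of the circadian clock, gave 10.76, 10.99 and 11.27, Supt6, a histone chaperone of elongation, 10.35, 10.69 and 10.93, and Atxn2l, an RNA-binding protein of stress granules, 10.34, 10.61 and 10.88.

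Remodellers other than Chd5 were Chd3 at 9.72, 10.29 and 9.64 and Chd4 at 9.65, 9.86 and 10.13, so Chd3 was highest on replicate 2. Ubiquitin members included Herc1, a large ligase, at 9.87, 10.20 and 10.47, and Trip12, another ligase, at 9.83, 10.19 and 10.28. Map1lc3a, an autophagosome protein, gave 9.98, 10.13 and 10.61. Motor genes included Kif1a, a kinesin of vesicle transport, at 9.89, 10.16 and 10.41 and Kif21b at 9.84, 10.19 and 10.43. Ipo5, an import receptor, gave 9.87, 10.15 and 10.42, and Nup155, a pore subunit, 9.39, 9.80 and 9.97. Smg1, a kinase of nonsense-mediated decay, gave 9.93, 10.37 and 10.48, while Ddx5, an RNA helicase, was low on replicate 3 at 9.95, 10.01 and 8.72.

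Other members lacked an assigned role or a descriptive name. The predicted genes Gm6713 and Gm6721, neighbours in the genome, gave 11.24, 11.59 and 11.83, and 10.98, 11.25 and 11.53. 4921528I07Rik gave 10.87, 10.93 and 11.27. Erdr1, annotated as a transcribed pseudogene, gave 10.84, 11.56 and 10.54. Jup, plakoglobin of cell junctions, gave 10.59, 10.67 and 11.05, Grina, a membrane protein, 11.03, 11.20 and 11.52, and Midn, midnolin, 10.46, 10.63 and 10.98. As deposited, Erdr1 was highest on replicate 2 and the others on replicate 3; after cyclic loess the mean deviation of clone and predicted names turned from 0.20 to -0.07 on replicate 3, and that of members not assigned from 0.23 to -0.03. RIKEN clone names accounted for 15 of 1592 measured and predicted Gm names for 10 of 1188, or 0.942% and 0.842%, beside 1.28% of all symbols.

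The promoters of members differed in base content between roles. RefSeq held promoters, 250 bases before to 50 after the start, for 214 of the 283 symbols, 288 promoters in all. The motifs were searched on both strands. GGGCGG, a Sp1-type box, was in 58.0% of these, against 46.5% of the promoters of all ranked genes and 35.7% of all promoters in the table. TGACG, the core of the cyclic AMP response element, was in 38.5%, 24.2% and 20.8%, and TGACGTCA, the whole element, which includes TGACG, in 4.51%, 2.32% and 1.79%. CCAAT was in 33.7%, 37.7% and 37.4%, and TATAAA in 9.38%, 12.3% and 13.6%. In the promoters of the top 100, CCAAT was in 46.9%, which turns its direction against all ranked genes, TGACG was in 48.1% and TGACGTCA in 8.64%. By set, TGACG was in 28.1% of 32 sperm structure, 40.8% of 142 regulatory and signalling, 64.3% of 14 ribosomal and 0.0% of 9 secreted promoters. TGACGTCA was in 0.0%, 4.2%, 14.3% and 0.0% of the same sets. The exact binomial 95% intervals in the members were 52.1% to 63.8% for GGGCGG, 32.9% to 44.4% for TGACG and 2.43% to 7.6% for TGACGTCA. They were 28.2% to 39.5% for CCAAT and 6.27% to 13.3% for TATAAA, both covering the share of all ranked genes. These intervals cover counting error only and treat the 288 promoters of 214 symbols as independent.

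The median GC content of the promoters was 61.7% in the members and 56.7% in all ranked genes. The median number of CG dinucleotides per promoter was 21 in the members, 13 in all ranked genes and 7 in the table. It was 12.5 in the sperm structure set (32 promoters) and 24 in the joined regulatory and signalling set (142). Ribosomal proteins (14 promoters) had 23.5 and secreted proteins (9) had 6. To show this, the 100 bases before the start are printed for the 3 highest-ranked genes with a promoter in each of the first and second of these sets, with CG in capitals. Coordinates are GRCm38.p6: Smcp chr3:92589074-92589173 (minus), Tnp2 chr16:10788656-10788755 (minus), Spem1 chr11:69822166-69822265 (minus), Plb1 chr5:32238984-32239083 (plus), Git1 chr11:77493188-77493287 (plus) and Mms19 chr19:41981131-41981230 (minus).
Smcp: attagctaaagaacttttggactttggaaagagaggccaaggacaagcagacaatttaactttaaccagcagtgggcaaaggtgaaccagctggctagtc
Tnp2: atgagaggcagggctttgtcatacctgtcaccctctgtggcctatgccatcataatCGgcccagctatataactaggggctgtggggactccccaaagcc
Spem1: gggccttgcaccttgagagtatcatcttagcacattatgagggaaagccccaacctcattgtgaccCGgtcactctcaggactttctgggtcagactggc
Plb1: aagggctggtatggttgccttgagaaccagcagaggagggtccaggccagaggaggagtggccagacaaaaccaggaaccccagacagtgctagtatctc
Git1: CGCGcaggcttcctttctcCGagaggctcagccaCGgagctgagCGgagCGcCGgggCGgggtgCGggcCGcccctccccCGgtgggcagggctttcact
Mms19: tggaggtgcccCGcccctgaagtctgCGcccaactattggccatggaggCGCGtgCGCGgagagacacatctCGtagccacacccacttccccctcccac

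The windows of Smcp and Plb1 hold 0 CG dinucleotides, those of Tnp2 and Spem1 hold 1, Mms19 holds 7 and Git1 holds 11. Git1 and Mms19 are from the joined regulatory and signalling set, as is Plb1, of the lipid and membrane transport role.

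Across the 300, the SD between pools had a median of 0.27, with quartiles of 0.22 and 0.33, against 0.17 over all ranked probe sets and 0.29 in the next 300. After cyclic loess the median of the 300 was 0.126, and without replicate 3 that of all ranked probe sets was 0.112. An SD over 0.5 was found in 44 members, or 14.7%, against 6.77% of all ranked, and an SD over 1 in 12, or 4.0%, against 0.656%. In the next 300 probe sets the shares were 12.3% and 4.33%, so they were similar just below the limit. Without replicate 1, 24 members had an SD over 0.5. An SD with a replicate left out rests on fewer arrays, so it is not directly comparable with that of all 3. Values were tied in 1.67% of members and in 27.4% of all ranked probe sets. The 10 largest SDs were those of ND3, ND4L, CYTB, Snord17, ND1, ND5, ND4, Rny3, Ptgds and ND6. The 10 smallest belonged to Spata18, Rn7sk, Lrrc51, Ubn2, 1700009N14Rik, Hnrnpu, Egln2, 4930571K23Rik, Gpat4 and Pkm, and ranged from 0.03 to 0.10. Hnrnpu, an RNA-binding nuclear matrix protein, for example, gave 8.41, 8.53 and 8.49.

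**Figure D5:**
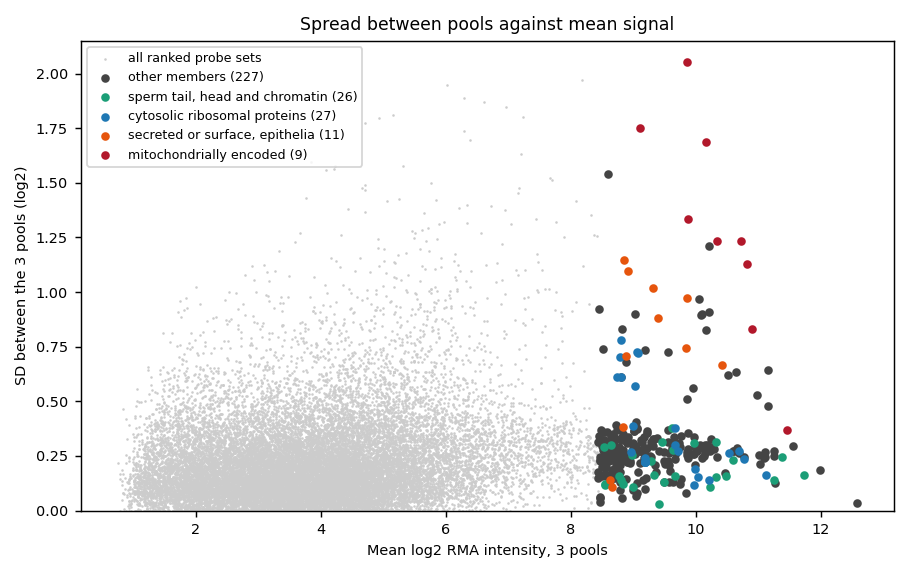
SD between the 3 pools (y axis, log2) against mean log2 intensity (x axis) for all ranked probe sets (grey) and the 300 of highest mean (coloured by role). Mitochondrial transcripts lie highest, up to 2.05, and sperm structure genes below 0.4.

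As deposited, the order of pools was shared by many members. Of the 300, 179 or 59.7% were lowest on replicate 1 and highest on replicate 3, against 18.7% of all ranked probe sets, while 44 had that order after cyclic loess. The medians of the 300 were 9.23, 9.11 and 9.32. Within the 300, values correlated at r = 0.774 between replicates 1 and 2, 0.666 between 1 and 3, and 0.848 between 2 and 3, across probe sets that are not independent. The top 300 lists of single arrays shared 245, 238 and 275 probe sets in the same pairs.

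Membership was shared by the arrays for most genes. In all, 230 members were in the top 300 of all 3 arrays, 60 of 2, 9 of 1 and the remaining member of none. Anapc13, a subunit of the anaphase-promoting complex, ranked lowest of the members on replicate 2, at 442, and Drosha, the nuclear microRNA-processing enzyme, on replicate 1, at 408. The 5 members just inside the limit were Srsf5, Arfgef2, Fhl4, Dcaf15 and Usp2, with means of 8.46 to 8.43. The 5 just outside were Srsf2, Cabs1, Kdm5b, Usp7 and Erich2, with means of 8.43 to 8.42, so the limit separates neighbours by less than their SDs of 0.09 to 0.92.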

How the data were processed

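The table deposited by the authors gives RMA values as log2 intensity (R 3.1.0, oligo, RMA and limma, per the submitters' processing notes). No source used here names a filter, a build or a scan batch. RMA normalizes arrays to 1 distribution, which can move high values. The table holds 33604 probe sets: 23493 have 1 gene symbol, 1801 several and 8310 none. Symbols come from the platform annotation; 299 of 300 members matched RefSeq (GRCm38.p6).

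Means and sample SDs over 3 arrays were computed with Python 3.11.15, pandas 2.3.3 and numpy 2.4.6, and cyclic loess with limma 3.58.1 in R 4.3.3. The ranking was checked on simulated data. The number of arrays limits the precision.

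Members and lists were chosen with earlier results of these data known, and roles were assigned by hand after the ranking was seen. Of the 300 probe sets, 219 have a role, 10 are pseudogenes, 21 have clone or predicted names and 50 were not assigned. A gene enters a list by its highest probe set. Mitochondrial genes were taken as those RefSeq places on that chromosome, chosen after seeing the data. Names could come from the 30 highest means, the 4 highest of each list, the 10 largest and smallest SDs, the members around the limit, and all mitochondrial and non-coding members; not every gene this allows is named, and other examples were picked after their values were seen. Alternatives were other summaries, normalizations, list sizes and leaving out each replicate.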

Additional observations from a re-analysis of the deposited data

How the results depend on the processing

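Membership changed little: 289 to 293 of the 300 stayed without 1 replicate, 291 by the median, 295 by the linear mean, 297 by mean rank and 298 after repeated quantile normalization. With 1 probe set per symbol 283 stayed, a count fixed by the 283 symbols of the 300. With all probe sets ranked 211 stayed, since those with no symbol or several symbols took the other places. After cyclic loess the median SD of the 300 was 0.126 and 44 members were lowest on replicate 1 and highest on replicate 3, an order also counted after seeing the data under the other normalizations (150 and 151). Without 1 replicate, 24 to 49 members had an SD over 0.5, the lowest count without replicate 1. The median SD of all ranked probe sets was then 0.112 to 0.148. These SDs rest on fewer arrays and are not directly comparable with those of all 3. In the top 100, TGACGTCA was in 8.64% of promoters, TGACG in 48.1% and CCAAT in 46.9%. The causes were not tested. List counts follow the list size. Protein length and composition, planned, were not run, since no protein sequences were used here. No paired analysis was possible because no groups were compared.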

Other observations

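Above the lowest mean of the 300 also lay 67 probe sets with no symbol, the highest with a mean of 13.02, and 47 with several symbols, the highest at 12.08; they were left out by the rule. Vmn1r233, a vomeronasal receptor gene, was a member at 11.12, 9.41 and 9.79 on replicates 1, 2 and 3, highest on replicate 1. Pairs of members that neighbour each other in the genome numbered 14; besides Spem1 and Spem2 they include Seh1l and Cep192, a nuclear pore and a centrosome gene, with means of 9.11 and 9.28, and Tle3 and Rplp1. Leaving out replicate 1 removed 11 members, 1 mitochondrial, 2 ribosomal and 2 secreted among them. Leaving out replicate 2 removed 7 and leaving out replicate 3 also 11, none of them from these roles.

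Hspa8, a constitutive heat shock protein outside the 300, gave 9.44, 6.69 and 6.97 on replicates 1, 2 and 3. Mir5125, the next microRNA gene below the members, gave 8.99, 8.81 and 6.46. Canx, the endoplasmic reticulum chaperone calnexin, gave 8.79, 8.22 and 7.86. All were highest on replicate 1.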
